A study of Mus musculus with 35 samples.

Results

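Fibroblast growth factor (FGF) signalling was followed in mouse iPS clones through 9 genes chosen by name: the ligand Fgf4, the receptors Fgfr1 and Fgfr2, the Sprouty genes Spry1, Spry2 and Spry4, the phosphatase gene Dusp6, and the ETS transcription factor genes Etv4 and Etv5. Every probe that the array design names after 1 of these genes was taken. This gave 16 probes for 8 of the 9 genes, out of 41174 gene probes, and Fgf4 is not analysed here. Each of 35 samples was hybridised to its own 1-colour (Cy3) Agilent array. The 30 iPS clones formed 6 groups of 5, made with Oct3/4, Sox2, Klf4 and c-Myc (4F) or without c-Myc (3F) from PαS cells, OP cells or tail tip fibroblasts (TTF). The source cells came from 6-week-old mice that carried a Nanog-GFP-IRES-Puro reporter transgene, and the factors were delivered by retrovirus together with a DsRed vector. PαS cells are bone marrow mesenchymal stem cells sorted as CD45-, Ter119-, PDGFRα+ and Sca-1+, and OP cells are osteo-progenitors sorted as negative for PDGFRα and Sca-1. Each clone is 1 colony picked as GFP+ and DsRed-, grown on SNL feeder cells with LIF, and each had 1 array. The ES lines EB-3 and RF8 and the 3 source cells also had 1 array each.

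FGFs bind receptor tyrosine kinases and, through Ras and Raf, activate the kinases ERK1 and ERK2. In mouse ES cells this pathway, driven largely by the cells' own Fgf4, moves cells out of self-renewal and towards lineage choice, and in the early embryo it favours primitive endoderm. Activated ERK raises the transcription of its own inhibitors, the Sprouty proteins and the ERK phosphatase Dusp6, and of Etv4 and Etv5, so that these genes are widely used as readouts of the pathway.

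The promoters of Dusp6 and Etv5, targets of the pathway whose levels moved together across clones, are shown to place the binding core of ETS factors in them. They are RefSeq sequences of build GRCm38.p6, and the promoters of Fgf4, Fgfr2, Spry1, Spry2, Dusp6 and Etv5 were the ones matched. Capitals mark CGGAAG and AGGAAG on either strand (CTTCCG and CTTCCT when read on the other strand), and no stretch can match both motifs at once.
Dusp6, plus strand, chr10:99262981-99263280: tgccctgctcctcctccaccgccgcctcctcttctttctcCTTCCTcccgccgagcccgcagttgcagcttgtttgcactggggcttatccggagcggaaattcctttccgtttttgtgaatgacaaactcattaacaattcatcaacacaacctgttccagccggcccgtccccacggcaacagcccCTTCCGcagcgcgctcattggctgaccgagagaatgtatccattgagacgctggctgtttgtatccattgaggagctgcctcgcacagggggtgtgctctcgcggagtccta
Etv5, minus strand, chr16:22438319-22438618: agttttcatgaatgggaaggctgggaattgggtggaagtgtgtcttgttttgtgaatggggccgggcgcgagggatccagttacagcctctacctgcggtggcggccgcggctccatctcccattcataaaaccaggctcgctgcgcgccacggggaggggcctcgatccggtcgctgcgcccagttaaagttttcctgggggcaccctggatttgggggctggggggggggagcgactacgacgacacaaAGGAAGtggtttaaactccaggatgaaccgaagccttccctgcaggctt
Etv5, minus strand, chr16:22439521-22439820: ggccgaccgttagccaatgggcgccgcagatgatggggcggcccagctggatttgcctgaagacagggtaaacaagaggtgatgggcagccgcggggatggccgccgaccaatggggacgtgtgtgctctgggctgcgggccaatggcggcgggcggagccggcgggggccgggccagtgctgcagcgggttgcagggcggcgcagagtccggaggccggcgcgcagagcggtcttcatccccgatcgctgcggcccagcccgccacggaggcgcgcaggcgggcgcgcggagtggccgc
The Dusp6 promoter held 1 CGGAAG, which starts 62 bases before the transcription start, and 1 AGGAAG, and the first of the Etv5 promoters held 1 AGGAAG close to its start site. The other Etv5 promoter and those of Fgf4, Spry1 and Spry2 held neither, and that of Fgfr2 held AGGAAG at 2 positions. Of 32544 different mouse promoters of the same length, 17% held CGGAAG, 35.1% held AGGAAG and 46.3% held either, so that these matches were common ones.

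Each level is the log2 of a probe's background-subtracted signal, scaled so that 0 is the 75th percentile of its array. Levels of different probes were not set against each other. For a gene with several probes, the brightest over clones and ES cells was used. Its position on build mm7 was chromosome 8, 24330065 to 24330124, for Fgfr1, chromosome 7, 126278278 to 126278337, for Fgfr2, chromosome 3, 37455053 to 37455112, for Spry1, and chromosome 14, 100321854 to 100321913, for Spry2. It was chromosome 10, 98828759 to 98828818, for Dusp6, chromosome 11, 101879168 to 101879227, for Etv4, and chromosome 16, 22033331 to 22033390, for Etv5. Exons and UTRs of this build were not annotated here. A difference was called at an adjusted p under 0.05 in a limma fit across all tested probes together with a change of at least 2-fold. Where groups are said not to overlap, the share of all probes without overlap was not computed. Of the probes used, 7 were well above background on all 35 arrays, and that of Spry4 on 26 of them.

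All 30 clones were scanned in 1 session on 8 slides. EB-3 and the 3 source cells shared a slide in a second session and RF8 was scanned in the third, so that clones and ES cells, or clones and source cells, cannot be told apart from their sessions. Between 56.6% and 71.2% of gene probes were well above background on an array. Of 12 pluripotency markers, 9 to 12 were well above background in each clone and 12 in each ES line. Sox2, Nanog and Esrrb were above background in 27 of 30 clones, the exceptions being 4F-TTF-iPS #1 and clones #1 and #3 of 4F-OP-iPS. The summed level of a list is the log2 of the sum of its unlogged levels, so that its brightest genes weigh most. Of the pluripotency markers Dppa5 had the highest clone median, 8.45, followed by Fbxo15 at 4.5. Of the primitive endoderm markers these were Col4a2 (5.44) and Col4a1 (5.38). The summed level of pluripotency markers was 4.88 to 9.32 in clones, with 4F-OP-iPS #1, #2 and #3 and 4F-TTF-iPS #1 at 5.46 or less and the next clone, 4F-TTF-iPS #2, at 7. Markers of the source cells fitted their labels in part. Bone sialoprotein (Ibsp) was above background in OP cells alone, at 3.65, whereas Pdgfra was at 1.58 in OP cells and 0.98 in PαS cells although OP cells were sorted as PDGFRα negative. TTF cells had all 8 blood cell markers above background, at a summed level of 9.35 against 2.63 in PαS and 4.14 in OP cells.

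**Figure D1:**
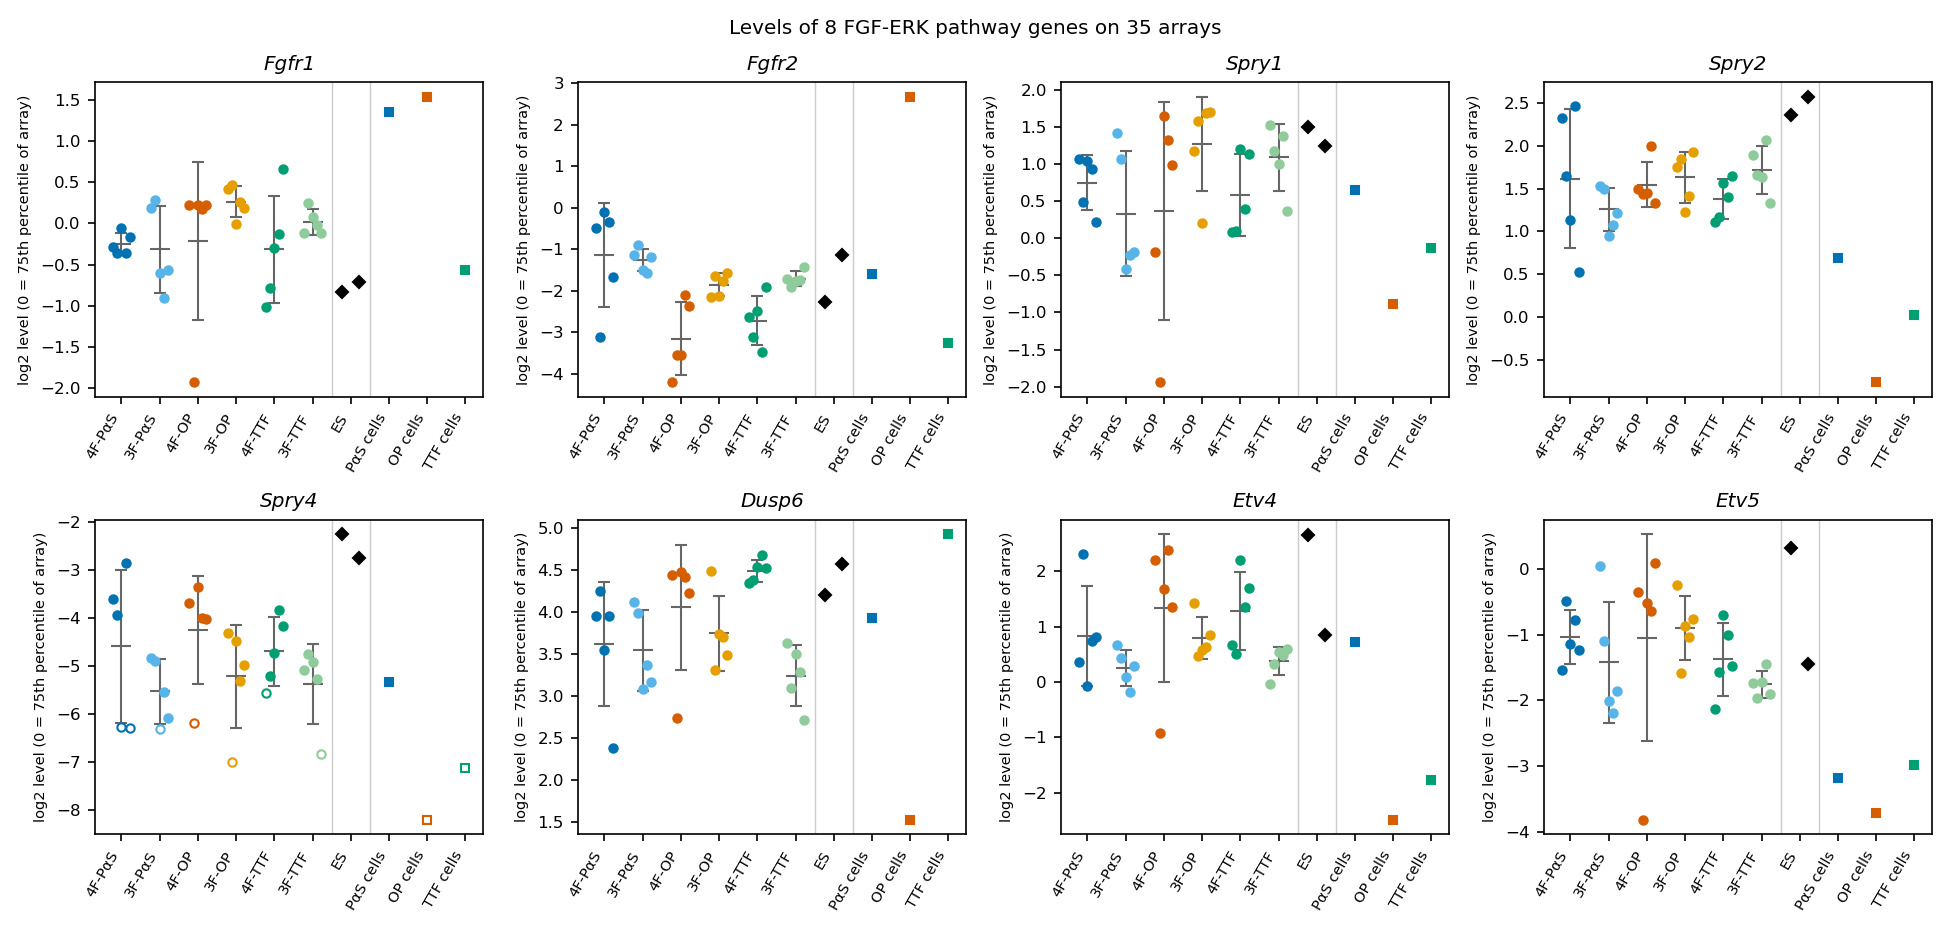
Log2 level (y axis, 0 is the 75th percentile of the array) of 8 genes in the 6 groups of iPS clones, ES cells and source cells (x axis). Circles are clones with the mean and SD of 5 clones in grey, diamonds are the ES lines, squares are source cells and open symbols are not well above background. Spry4 in all 30 clones lies below both ES lines, Dusp6 in 3F-TTF-iPS clones lies below all 4F-TTF-iPS clones, and 4F-OP-iPS #2 is the lowest clone for Fgfr1, Spry1, Etv4 and Etv5.

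The receptors differed in how evenly the clones expressed them. Fgfr1, the main FGF receptor of ES cells, had mean levels of -0.25 ± 0.14 in 4F-PαS-iPS, -0.32 ± 0.53 in 3F-PαS-iPS, -0.21 ± 0.96 in 4F-OP-iPS, 0.27 ± 0.19 in 3F-OP-iPS, -0.31 ± 0.65 in 4F-TTF-iPS and 0.02 ± 0.16 in 3F-TTF-iPS clones (SD, n = 5 each). The order ran from 3F-OP-iPS down to 3F-PαS-iPS over 0.58, and only 1 neighbouring pair of groups, 3F-OP-iPS and 3F-TTF-iPS, lay further apart than the larger of its SDs. ES cells were at -0.83 (EB-3) and -0.71 (RF8), below 26 of 30 clones. The Fgfr1 level of 4F-OP-iPS #2, -1.93, lay far below the other 4F-OP-iPS clones at 0.18 to 0.23. Fgfr1 passed the test in none of the comparisons between clones, or between clones and ES cells (difference 0.63, SE 0.37, adjusted p = 0.157).

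Fgfr2, a receptor that in the blastocyst is highest in primitive endoderm and trophectoderm, spanned 2.01 between the highest and the lowest group mean, against 1.28 or less for the other genes. Its levels in 4F-PαS-iPS #1 to #5 were -0.49, -3.12, -0.11, -0.34 and -1.67, and in 3F-PαS-iPS clones -1.15, -0.91, -1.5, -1.57 and -1.19. They were -4.21, -3.55, -3.55, -2.11 and -2.37 in 4F-OP-iPS clones and -2.16, -1.66, -2.12, -1.76 and -1.58 in 3F-OP-iPS clones. PαS-iPS clones were higher than OP-iPS clones, although the groups overlapped: 4F-PαS-iPS #2 lay among the 4F-OP-iPS clones, and 4F-PαS-iPS #5 lay below 3F-OP-iPS #2 and #5. The difference was 1.30 (SE 0.30, 2.5-fold, n = 10 against 10, adjusted p = 0.0189), and it was the 1 member of 8 called, where 1.60% of 27622 probes were called. The other Fgfr2 probes gave 1.62 (SE 0.28, adjusted p = 0.00418) and 1.08 (SE 0.29, adjusted p = 0.0374), and both were called, although they were above background in 8 and 6 of 10 OP-iPS clones. Fewer cells with the RNA and less RNA in each cell cannot be told apart in these samples.

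Several PαS- and OP-iPS clones shared slides, and within these the Fgfr2 difference took either sign. On the slide with 2 clones of each it was 2.99 for 4F-clones, on that with 1 PαS- and 3 OP-iPS clones -0.44, and on that with 2 of each 0.53 for 3F-clones. With the slide as a fixed block it was 1.02 (SE 0.42, adjusted p = 0.171), and the call was lost. It was also lost without the 3 clones that had Sox2 and Nanog below background (1.06, SE 0.32, adjusted p = 0.155). Without 4F-PαS-iPS #2 it was 1.55 (SE 0.25, adjusted p = 0.00127). The summed level of pluripotency markers was 8.36 to 9.32 in PαS-iPS and 4.88 to 9.15 in OP-iPS clones, with 1 of 12 markers, Zfp42, called higher in PαS-iPS clones. That of primitive endoderm markers was 6.99 to 8.46 and 5.48 to 9.18, with 0 of 10 called. Their part in the Fgfr2 difference was not tested.

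In TTF-iPS clones Fgfr2 was at -2.72 ± 0.60 with 4 factors and -1.72 ± 0.18 with 3 factors (SD, n = 5 each). PαS-iPS clones were higher than TTF-iPS clones by 1.01 (SE 0.30, adjusted p = 0.0889), which was not called, and 0 of 8 members were called in this comparison by limma, where 0.500% of probes were. At an unadjusted p under 0.05 were 1 member, Fgfr2, and 4588 of 27622 probes. Without 4F-PαS-iPS #2 this difference was called, at 1.26 (SE 0.25, adjusted p = 0.00905), and the next brightest Fgfr2 probe called it too, at 1.36 (SE 0.28, adjusted p = 0.0224). The dimmest Fgfr2 probe did not, at 0.99 (SE 0.29, adjusted p = 0.0868), above background in 8 of 10 PαS- and 3 of 10 TTF-iPS clones. Between OP- and TTF-iPS clones 0 of 8 members were called, with 0.0217% of probes called, and the smallest adjusted p of the 8 genes was 0.597, of Etv5. At an unadjusted p under 0.05 were 0 of 8 members and 2806 of 27622 probes.

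Clones made without c-Myc were compared with those made with it. Within each source the 3F-clones lay on other slides than the 4F-clones, so that this difference was not measured on any single slide. Fgfr2 was not called by its brightest probe. The 3F minus 4F difference was -0.12 (SE 0.43) in PαS-iPS, 1.30 (SE 0.43, adjusted p = 0.0565) in OP-iPS and 1.01 (SE 0.43, adjusted p = 0.13) in TTF-iPS clones. Over all sources it was 0.73 (SE 0.25, adjusted p = 0.0348), under 2-fold, and 0 of 8 members were called there against 5.34% of probes, with 4 members at an unadjusted p under 0.05, as were 9568 of 27622 probes. In OP-iPS clones 0 of 8 members were called against 4.51% of probes, and 1 member, Fgfr2, had an unadjusted p under 0.05, as did 6790 of 27622 probes. The call for Fgfr2 appeared when any of 4 single clones was left out, with adjusted p of 0.0181 without 4F-OP-iPS #4, 0.0201 without 4F-PαS-iPS #2, 0.0327 without 4F-OP-iPS #5 and 0.0485 without 4F-PαS-iPS #3. The dimmest Fgfr2 probe, which lies far upstream in the gene at 126407714 to 126407773, was called higher in 3F-clones over all sources (1.23, SE 0.24, adjusted p = 0.000896). That probe was above background in 13 of 15 3F-clones and 4 of 15 4F-clones. Only 3F-PαS-iPS and 3F-OP-iPS had it above background in all 5 clones, so that it entered the test only through groups in which it was high, and the fitted value averages in clones not above background. In 4F-TTF-iPS clones it was not well above background on any array, against 3 of 5 3F-TTF-iPS clones, which makes the 3F-TTF-iPS level at least 1.63-fold higher (adjusted p = 0.0188). Such a bound sets the mean of the brighter group against, on each array of the dimmer group, the higher of the lowest signal among probes well above background and the probe's own.

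**Figure D2:**
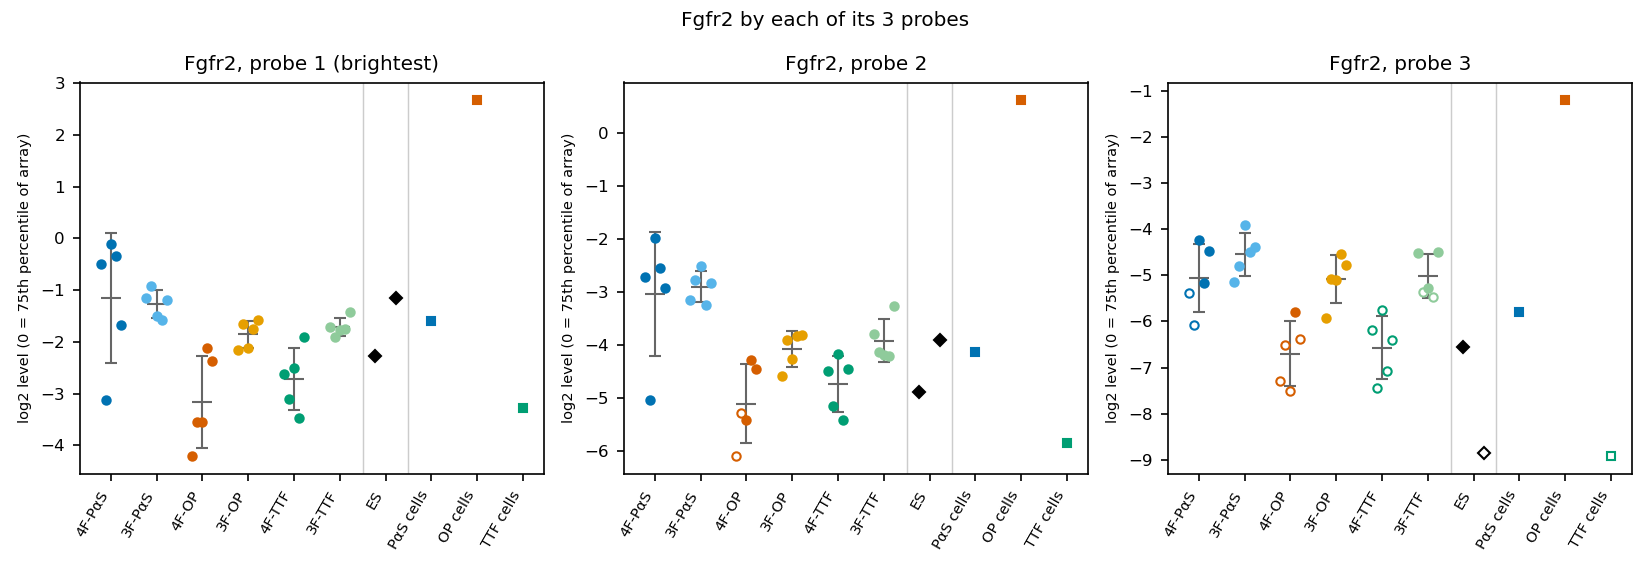
Log2 level of Fgfr2 (y axis, 0 is the 75th percentile of the array) by each of its 3 probes in the 6 groups of clones, ES cells and source cells (x axis); symbols are clones (circles), ES lines (diamonds) and source cells (squares), with mean and SD of 5 clones, and open symbols are not well above background. In all 3 panels OP cells are the highest array, and by the 2 brighter probes 4F-OP-iPS clones have the lowest mean of the 6 clone groups. By the dimmest probe 4F-OP-iPS and 4F-TTF-iPS clones cannot be ranked, with 1 and 0 of 5 above background.

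Source cells expressed the receptors at levels of their own. Fgfr1 was at 1.36 in PαS and 1.54 in OP cells, above all 30 clones, and at -0.56 in TTF cells, below 25 of them. Fgfr2 was at 2.67 in OP cells, above all 30 clones, the highest of which was 4F-PαS-iPS #3 at -0.11, against -1.60 in PαS and -3.27 in TTF cells. The mean of OP-iPS clones minus OP cells was -5.18 for Fgfr2, with 0 of 10 clones above them, and 8 of 10 PαS-iPS clones and 9 of 10 TTF-iPS clones lay above their own source. With the 3 source arrays taken as 1 group, neither receptor was called against the clones (Fgfr1 0.91, SE 0.35, adjusted p = 0.027 at 1.9-fold; Fgfr2 1.25, SE 0.62, adjusted p = 0.0871). These values turned on single arrays. Without TTF cells both were called, at 1.58 (SE 0.37, adjusted p = 0.000674) for Fgfr1 and 2.51 (SE 0.64, adjusted p = 0.00157) for Fgfr2. Without OP cells Fgfr2 changed sign, at -0.45 (SE 0.51, adjusted p = 0.477), and Fgfr1 was 0.53 (SE 0.41, adjusted p = 0.289). Without PαS cells Fgfr1 was 0.62 (SE 0.42, adjusted p = 0.213) and Fgfr2 1.68 (SE 0.75, adjusted p = 0.0604). Whether each source differed from its own clones was not tested, as each source had a single array.

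Among the Sprouty genes, which encode feedback inhibitors of receptor tyrosine kinase signalling, Spry4 was lower in all clones than in ES cells, by a probe that entered the test only through the ES arrays. Spry4 was at -2.25 in EB-3 and -2.74 in RF8, and in the 30 clones it ranged from -7.00 through a median of -4.90 to -2.84. All 30 clones lay below both ES lines, and 23 of them were well above background. The fitted mean difference was -2.44 (SE 0.72, adjusted p = 0.00617), which averages in 7 clones not above background. ES cells were the only group with Spry4 above background on every array, against 3 or 4 of 5 clones in each clone group, so that the filter on dim probes favoured a call in this direction. Spry4 was the 1 member of 8 called between clones and ES cells, where 36.2% of 27622 probes were called. Without EB-3 the difference was -2.20 (SE 1.02, adjusted p = 0.0924), and after normexp background correction -0.95 (SE 0.30, adjusted p = 0.0155), under 2-fold. The second Spry4 probe was above background on 8 of 35 arrays and was not tested.

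Spry4 values in the groups were spread too widely to separate them. They were -4.59 ± 1.60 in 4F-PαS-iPS, -5.53 ± 0.67 in 3F-PαS-iPS, -4.25 ± 1.12 in 4F-OP-iPS, -5.21 ± 1.07 in 3F-OP-iPS, -4.69 ± 0.71 in 4F-TTF-iPS and -5.36 ± 0.84 in 3F-TTF-iPS clones (SD, n = 5 each), and no neighbours in this order lay further apart than the larger of their SDs. The mean of 3F-clones was lower than that of 4F-clones in each of the 3 sources. Over all sources the difference was -0.86 (SE 0.36, adjusted p = 0.0897), which did not pass the test. It was called without 4F-PαS-iPS #5 (-1.0, SE 0.35, adjusted p = 0.0393) and without 4F-OP-iPS #2 (-1.02, SE 0.34, adjusted p = 0.0283), neither of them above background for Spry4.

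Spry2, the next feedback inhibitor, was at 2.36 in EB-3 and 2.57 in RF8 and ranged from 0.53 through a median of 1.5 to 2.46 in clones, with 29 of 30 clones below both lines. The exception was 4F-PαS-iPS #4, at 2.46. The difference of -0.94 (SE 0.29, adjusted p = 0.00855) passed the p threshold at 1.9-fold and so was not called. Without EB-3 it was -1.05 (SE 0.41, adjusted p = 0.0458) and Spry2, not Spry4, was the called member. The other Spry2 probe gave 0.03 (SE 0.19, adjusted p = 0.903), so that the probes disagreed on this difference. Group means of Spry2 lay within 0.46 of each other, from 1.72 ± 0.28 in 3F-TTF-iPS to 1.26 ± 0.26 in 3F-PαS-iPS clones (SD, n = 5 each). Spry1 was at 1.5 in EB-3 and 1.24 in RF8, and its clones ran from -1.94 in 4F-OP-iPS #2 through a median of 1.02 to 1.70 in 3F-OP-iPS #5. Spry1 was not called in any comparison.

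Primary cells had less Spry2 than nearly all clones. Spry2 was at 0.69 in PαS, -0.76 in OP and 0.02 in TTF cells, and 29 of 30 clones lay above all 3, the exception being 4F-PαS-iPS #5 at 0.53. The source minus clone difference was -1.54 (SE 0.26, 2.9-fold, adjusted p = 1.27e-05), and the other probe, at -1.95 (SE 0.16, adjusted p = 5.67e-11), did not overlap between clones and sources. This call held when any of the 3 sources was left out, at -1.17 to -1.89. Spry4 was at -5.32 in PαS cells and not well above background in OP (-8.20) or TTF cells (-7.13). It was called lower in source cells at a fitted -1.95 (SE 0.62, adjusted p = 0.00866), with 1 of 3 source arrays above background and the probe tested only through the ES arrays, a value that was -1.29 (SE 0.73, adjusted p = 0.143) without OP cells. Spry1 in source cells, from -0.89 to 0.65, was lower by 0.85 on average (SE 0.46, adjusted p = 0.115), which did not pass the test.

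Dusp6, a phosphatase that removes the activating phosphates from ERK, was the 1 member called between 3F- and 4F-clones of TTF by the probes used. Its levels in 4F-TTF-iPS #1 to #5 were 4.34, 4.38, 4.53, 4.67 and 4.52, and in 3F-TTF-iPS #1 to #5 3.63, 3.09, 3.50, 3.28 and 2.71. The groups did not overlap, although how many of all probes did not overlap here was not computed. The difference was -1.25 (SE 0.32, 2.4-fold, n = 5 against 5, adjusted p = 0.0149), and Dusp6 was the 1 member of 8 called in this comparison, where 5.77% of 27622 probes were called. Leaving out any clone kept it between -1.34 and -1.11 and called. No slide held 3F- and 4F-TTF-iPS clones together, and with the slide as a fixed block the difference was -0.19 (SE 0.88, adjusted p = 1), with it as a random block -1.08 (SE 0.43, adjusted p = 0.36), neither called. The summed level of pluripotency markers was 4.91 to 8.76 in 4F- and 8.38 to 8.76 in 3F-TTF-iPS clones, and that of primitive endoderm markers 7.61 to 8.79 and 7.05 to 7.89, with none of the 12 and 10 markers called. Their part in the Dusp6 difference was not tested.

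In the other sources Dusp6 differed less between 3F- and 4F-clones than its spread. Its levels were 3.61 ± 0.73 in 4F-PαS-iPS and 3.54 ± 0.47 in 3F-PαS-iPS clones, and 4.06 ± 0.74 in 4F-OP-iPS and 3.74 ± 0.44 in 3F-OP-iPS clones (SD, n = 5 each). Of the 8 members 0 were called in PαS-iPS clones, where 0.0181% of probes were, and the smallest adjusted p of the 8 genes there was 0.449, of Spry4. At an unadjusted p under 0.05 were 0 of the 8 members and 4772 of 27622 probes. The effect of leaving out c-Myc on Dusp6 differed between PαS- and TTF-iPS clones by 1.18 (SE 0.45, adjusted p = 0.161) and between OP- and TTF-iPS clones by 0.94 (SE 0.45, adjusted p = 1), and so was not shown to differ between sources. Over all probes 191 of 27622 passed the adjusted threshold for such a difference between PαS- and OP-iPS clones, 170 between PαS- and TTF-iPS clones and 0 between OP- and TTF-iPS clones. Over all sources it was -0.54 (SE 0.18, adjusted p = 0.0365), under 2-fold.

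ES cells had Dusp6 at 4.20 (EB-3) and 4.57 (RF8), above 19 of 30 clones and below 1 of them, and the difference of clones from ES cells was -0.60 (SE 0.37, adjusted p = 0.176). The source cells spanned the range of the clones, with TTF cells at 4.92 above all 30, PαS cells at 3.93 above 15, and OP cells at 1.53 below all 30. Their mean difference from clones was -0.32 (SE 0.41, adjusted p = 0.514). Without TTF cells it was -1.05 (SE 0.43, adjusted p = 0.0411) and called, and without OP cells 0.64 (SE 0.38, adjusted p = 0.156), of opposite sign and not called.

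Etv4 and Etv5, ETS factors that carry the FGF signal to the genome, were lower in the source cells than in clones. Etv4 was at 0.73 in PαS, -2.49 in OP and -1.78 in TTF cells, and from -0.93 through a median of 0.62 to 2.38 in clones. All 30 clones lay above OP and TTF cells, and 12 of them above PαS cells. The difference was -2.0 (SE 0.52, 4.0-fold, adjusted p = 0.00157), and -1.34 (SE 0.59, adjusted p = 0.0604) without OP cells. Etv5 was at -3.18, -3.71 and -2.99 in PαS, OP and TTF cells, and 29 of 30 clones lay above all 3 sources, the exception being 4F-OP-iPS #2 at -3.82. Its difference was -2.04 (SE 0.48, 4.1-fold, adjusted p = 0.000647) by the brightest probe, and the second probe gave -0.56 (SE 0.53, adjusted p = 0.367), not called. Spry2, Spry4, Etv4 and Etv5 were the 4 members of 8 called between source cells and clones, all lower, and 39.1% of 28300 probes were called in that comparison, 4365 higher and 6707 lower. All 12 pluripotency markers and 9 of 10 primitive endoderm markers were also called lower in source cells, and 14 of 17 fibroblast markers higher. The part of other differences between these cell types was not tested.

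The single arrays of the ES lines lay further apart in these factors than in the other genes. Etv4 was at 2.66 in EB-3 and 0.85 in RF8, and Etv5 at 0.33 and -1.45, differences of 1.82 and 1.79 where the median absolute difference between the lines over all tested probes was 0.69. Clones were lower than the ES mean by 0.94 for Etv4 (SE 0.55, adjusted p = 0.154) and by 0.69 for Etv5 (SE 0.60, adjusted p = 0.338), neither of which passed the test. The second Etv5 probe was called lower in clones, at -1.83 (SE 0.65, adjusted p = 0.0198). With EB-3 as the only ES array Etv4 was called lower in clones, at -1.85 (SE 0.74, adjusted p = 0.0434), and with RF8 alone it was -0.03 (SE 0.74, adjusted p = 0.978). RF8 also carried more of the fibroblast and feeder markers, at a summed level of 7.49 against 3.52 in EB-3, and whether this had a part in the difference was not tested.

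Between groups of clones Etv4 and Etv5 were not called in any comparison. Etv4 was at 0.83 ± 0.90 in 4F-PαS-iPS, 0.26 ± 0.33 in 3F-PαS-iPS, 1.34 ± 1.33 in 4F-OP-iPS, 0.79 ± 0.38 in 3F-OP-iPS, 1.28 ± 0.71 in 4F-TTF-iPS and 0.38 ± 0.25 in 3F-TTF-iPS clones (SD, n = 5 each). The 3F-mean was below the 4F-mean in each of the 3 sources, and over all sources the difference was -0.67 (SE 0.28, adjusted p = 0.081). Without 4F-OP-iPS #2 it was -0.86 (SE 0.22, adjusted p = 0.00538), still under 2-fold. Group means of Etv5 spanned 0.86, with SDs of 0.20 to 1.58.

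**Figure D3:**
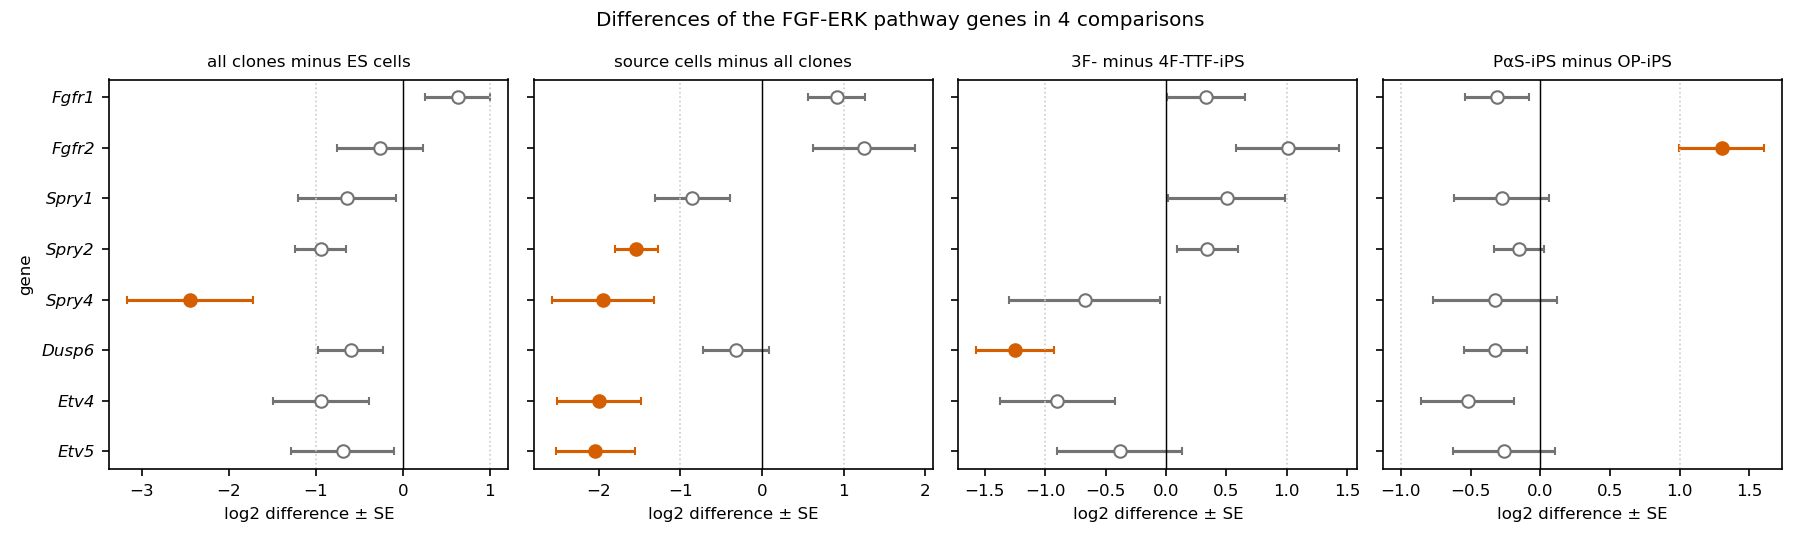
Log2 difference (x axis) of each gene (y axis) in 4 comparisons, with bars for the standard error of the limma fit. Filled orange points were called, and dotted lines mark 2-fold. Spry4 is called lower in clones than in ES cells, 4 genes are called lower in source cells than in clones, Dusp6 is called lower in 3F- than in 4F-TTF-iPS clones, and Fgfr2 is called higher in PαS- than in OP-iPS clones.

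Markers of other cell types also differed between clones and ES cells. All 10 primitive endoderm markers, such as Gata4, Gata6 and Sox17, were called higher in clones, at a summed level of 5.48 to 9.18 against 2.33 and 3.07 in the ES lines, and all 10 were above background in every clone. Fibroblast and feeder markers were called higher for 13 of 17, with a summed level of 6.46 to 8.85 in clones, 3.52 in EB-3 and 7.49 in RF8, the latter within the range of the clones. Of the pluripotency markers 5 of 12 were called lower, among them Zfp42. Over all probes 36.2% were called in this comparison, 4761 higher and 5240 lower. Whether the marker differences had a part in the Spry4 difference was not tested.

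Across the 30 clones, the levels of several feedback genes were related, although how often other gene pairs are related was not computed. The permutation test used below treats clones as exchangeable, while they share groups and slides. Of the 28 pairs of the 8 genes, 12 had a Pearson correlation with a permutation p under 0.05 after Benjamini-Hochberg adjustment over the pairs. The highest was between the receptor Fgfr1 and its inhibitor Spry1, at r = 0.801 (permutation test, two-sided, p = 1e-05, the smallest the resamples can give, adjusted p = 0.00028) and rho = 0.669 (permutation p = 1e-04). Without 4F-OP-iPS #2 and 4F-TTF-iPS #1, the clones farthest from the median Fgfr1 level, r was 0.655 (permutation p = 0.00017). It was 0.816 within slides, 0.735 without the 4 clones of low pluripotency marker sum, a choice made after seeing the data, and 0.813, 0.864 and 0.657 within PαS-, OP- and TTF-iPS clones.

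The ETS factors and Dusp6 made a second set. Etv4 and Etv5 had r = 0.718 (permutation p = 2e-05, adjusted p = 0.00028) and rho = 0.762 (permutation p = 1e-05), and r was 0.720 without the 2 clones farthest in Etv4 and 0.687 within slides. Within PαS-, OP- and TTF-iPS clones it was 0.622, 0.831 and 0.769, and without the same 4 clones 0.614. Dusp6 and Etv4 had r = 0.684 (permutation p = 6e-05, adjusted p = 0.00056) and rho = 0.689 (permutation p = 4e-05), with r = 0.793 without 4F-PαS-iPS #5 and 3F-TTF-iPS #5 and 0.613 within slides. Within sources it was 0.381, 0.930 and 0.644, lowest in PαS-iPS clones. Dusp6 and Etv5 had r = 0.600 (permutation p = 0.00036, adjusted p = 0.00202) and rho = 0.622 (permutation p = 0.00042), with 0.662 without the farthest 2 clones and 0.577 within slides.

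Some relations rested on few clones. Fgfr1 and Etv5 had r = 0.681 (permutation p = 0.00015, adjusted p = 0.00105) and rho = 0.465 (permutation p = 0.00995), which was 0.416 without 4F-OP-iPS #2 and 4F-TTF-iPS #1 (permutation p = 0.0278). Spry1 and Etv5 had r = 0.594 (permutation p = 0.00112, adjusted p = 0.00523) and rho = 0.422 (permutation p = 0.0205), which fell to 0.292 without 4F-OP-iPS #2 and 3F-PαS-iPS #3 (permutation p = 0.133). Fgfr1 and Etv4 had r = 0.488 (permutation p = 0.0061, adjusted p = 0.0173) and rho = 0.332 (permutation p = 0.073), which was 0.329 (permutation p = 0.0867) without the same 2 clones as for Etv5. Over all clones the last 2 relations did not hold without the 2 clones named. Within slides r was 0.780 for Fgfr1 and Etv5, 0.623 for Spry1 and Etv5 and 0.694 for Fgfr1 and Etv4. Within PαS-, OP- and TTF-iPS clones it was 0.708, 0.878 and 0.130 for the first of these pairs, 0.761, 0.678 and 0.215 for the second and 0.174, 0.703 and 0.171 for the third.

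Spry4 was related to Dusp6, Etv4 and Etv5 over the 23 clones in which it was above background. Its r was 0.614 with Dusp6 (permutation p = 0.00186, adjusted p = 0.00744, rho = 0.618, permutation p = 0.00197), 0.556 with Etv4 (permutation p = 0.00617, adjusted p = 0.0173, rho = 0.627, permutation p = 0.00159) and 0.520 with Etv5 (permutation p = 0.011, adjusted p = 0.028, rho = 0.553, permutation p = 0.00686). Without the 2 clones farthest in Spry4 these were 0.683, 0.656 and 0.523, and within slides 0.753, 0.494 and 0.398. As deviations from group means, r was 0.535 with Dusp6 but 0.1 with Etv4 and 0.382 with Etv5. After normexp background correction all 3 lost significance, at 0.380, 0.330 and 0.285.

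Spry1 and Spry2 had r = 0.499 (permutation p = 0.00536, adjusted p = 0.0173) and rho = 0.641 (permutation p = 0.00028), with 0.565 without 4F-OP-iPS #2 and 3F-PαS-iPS #3 and 0.397 within slides. Fgfr2 ran against Etv4 at r = -0.428 (permutation p = 0.0179, adjusted p = 0.0418) and rho = -0.476 (permutation p = 0.00845), with -0.574 without 4F-OP-iPS #1 and 4F-OP-iPS #2. This was -0.258 within slides and -0.190 as deviations from group means. Fgfr1 and Fgfr2 were not found to be related (r = 0.184, permutation p = 0.332, adjusted p = 0.372, rho = 0.018, permutation p = 0.927).

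**Figure D4:**
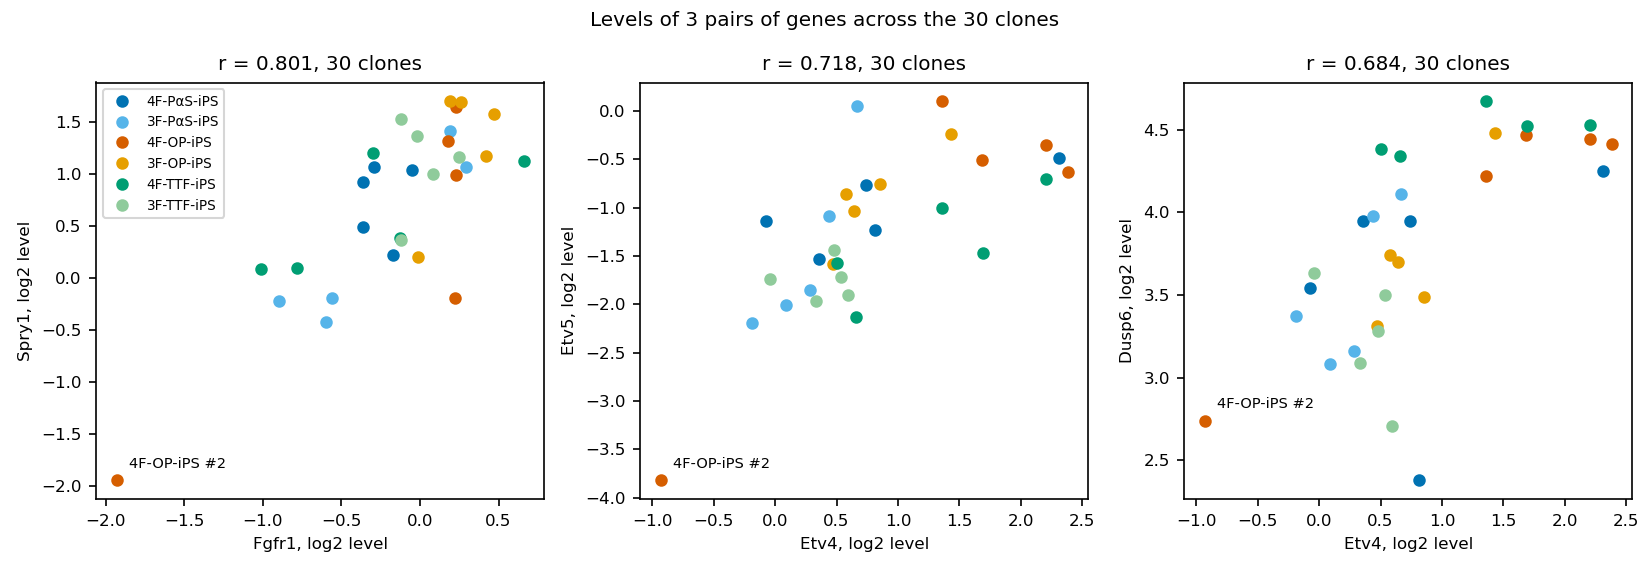
Log2 levels (0 is the 75th percentile of the array) of Spry1 against Fgfr1, Etv5 against Etv4 and Dusp6 against Etv4 in the 30 iPS clones, coloured by group. The points rise together with r = 0.801, 0.718 and 0.684, and 4F-OP-iPS #2 lies at the left end of each panel.

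**Figure D5:**
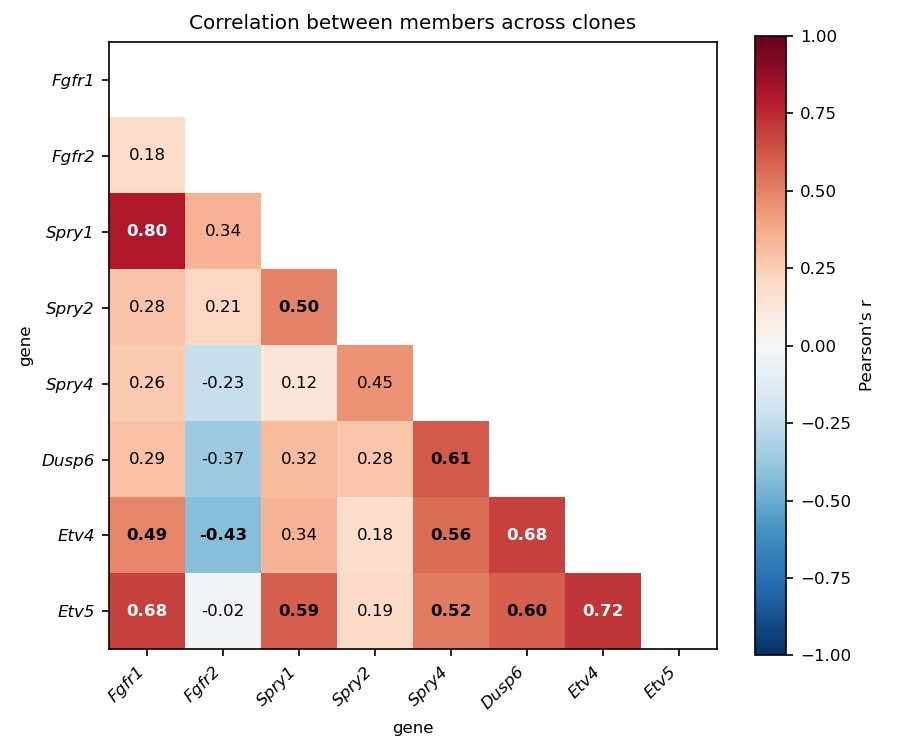
Pearson's r between the log2 levels of each pair of 8 genes across clones (30, or 23 for pairs with Spry4), with the colour scale running from -1 to 1. Bold values are the 12 pairs with an adjusted permutation p under 0.05, of which 11 are positive and Fgfr2 with Etv4 is negative.

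Clones within a group differed more in most of these genes than in a typical gene. The pooled SD within the 6 groups was 0.53 for Fgfr1, 0.69 for Fgfr2, 0.81 for Spry1, 0.41 for Spry2, 1.05 for Spry4, 0.53 for Dusp6, 0.75 for Etv4 and 0.82 for Etv5, on the log2 scale. Over all tested probes the median of this SD was 0.42 and its 90th percentile 1.00, so that Spry2 lay at the median and Spry4 above the 90th percentile. Spry4 was not above background in 7 of the 30 clones. 4F-OP-iPS #2 was the lowest of 30 clones for Fgfr1, Spry1, Etv4 and Etv5 and next to lowest for Fgfr2, while it ranked 13 from the lowest for Spry2. It had the highest summed level of primitive endoderm markers among clones, 9.18, and the lowest of fibroblast and feeder markers, 6.46, and 11 of 12 pluripotency markers above background. Its group, 4F-OP-iPS, had the largest SD of the 6 groups for Fgfr1 (0.96), Spry1 (1.465), Etv4 (1.33) and Etv5 (1.58). The pooled SDs without this clone were not computed.

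For each member, up to 3 genes whose level was most like its own over the 30 clones are given, found by Pearson's correlation, as a description over arrays that share slides and normalization. Fgfr1 was most like Rasa3 (r = 0.904), Slc25a27 (0.886) and Npdc1 (0.885). Fgfr2 was most like Gpr137b (0.862) and Scnn1b (0.861, above background in 15 clones). Spry1 was most like Fzd10 (0.867), Gli3 (0.866) and Ahi1 (0.848), and Spry2 like Vegfb (0.778), Myo9a (0.775) and Thrap3 (0.765). Dusp6 was most like Etv1 (0.876), itself an ETS factor of the same subfamily as Etv4 and Etv5, followed by Prdx2 (0.875) and Bnipl (0.860, above background in 13 clones). Etv4 was most like Phf6 (0.858), Cchcr1 (0.857) and Rarg (0.857), and Etv5 like Acp6 (0.931), Cobl (0.895) and Phc1 (0.890). Spry4, with 23 clones above background, was most like Ap1m1 (0.851), Ctbp2 (0.842) and Coq4 (0.842).

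The rest of the pathway was read from lists by role, members included. Of 22 FGF ligand genes 21 had a probe and 14 were tested against ES cells. In clones 5 were called higher and 5 lower than in ES cells, with a median difference of -0.50. Over all tested probes 36.2% were called, 4761 higher and 5240 lower, with a median of -0.11. Fgf17 had a mean level of -1.02 in ES cells and was above background in 6 of 30 clones, without overlap, and it entered the test only through the ES arrays. Fgf5, a gene of the epiblast, was called lower at a fitted -3.90 (SE 1.24, adjusted p = 0.00998), with 19 of 30 clones above background. Fgf21, a hormone-like FGF, was higher by 3.20 (SE 0.89, adjusted p = 0.00393) and Fgf7, typically made by mesenchyme, by 2.85 (SE 0.85, adjusted p = 0.00621), both above background in 1 of 2 ES lines. Against source cells, 4 of 15 tested ligands were called higher in the sources and 5 lower, with Fgf3 at least 31.8-fold and Fgf15 at least 8.0-fold lower, neither above background on any source array. Over all 28300 probes 39.1% were called there, 4365 higher and 6707 lower.

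Between 3F- and 4F-clones, each ligand that was called was higher in 3F-clones, as were most called probes: 1087 higher and 159 lower (4.51% called) in OP-iPS and 1096 higher and 499 lower (5.77% called) in TTF-iPS clones. In OP-iPS clones 4 of 14 were called higher: Fgf21 by 3.67 (SE 0.77, adjusted p = 0.0058), Fgf18 by 2.21 (SE 0.38, adjusted p = 0.00126), Fgf1 by 2.17 (SE 0.60, adjusted p = 0.0249) and Fgf22 by 1.77 (SE 0.55, adjusted p = 0.0453). In TTF-iPS clones Fgf21, Fgf22 and Fgf18 were higher, by 2.50 (SE 0.77, adjusted p = 0.0386), 1.95 (SE 0.55, adjusted p = 0.0256) and 1.64 (SE 0.38, adjusted p = 0.00771). In PαS-iPS clones none was called. Fgf18, which acts in bone and cartilage, did not overlap between 3F- and 4F-clones in OP- or TTF-iPS clones and was above background in all of them. Fgf21 and Fgf22 were above background in 2 of 5 4F-OP-iPS clones each, and Fgf1 in 3 of 5, so that their fitted differences in OP-iPS clones average in values not above background. In TTF-iPS clones Fgf21 was above background in all 5 3F- and all 5 4F-clones, and Fgf22 in 3 of 5 3F- and 1 of 5 4F-clones, to which the same applies. Of the clone groups, 3F-OP-iPS was the only one with Fgf22 above background in all 5 clones, although both ES arrays had it too. In OP-iPS clones the pluripotency genes Zfp42 and Dppa5 were called higher in 3F-clones too, and without the 4 clones of low pluripotency marker sum 62 probes in place of 1246 were called. No slide held both 3F- and 4F-OP-iPS clones, and slide and factor number cannot be told apart in them, as the fixed block could not be fitted; with the slide as a random block 168 probes were called. In TTF-iPS clones, with the slide as a fixed block, 5 probes in place of 1595 were called. These limits hold for all list genes called between 3F- and 4F-clones of OP and TTF in this and the other lists, and each gene's value under them was not computed.

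Among 16 receptors and co-receptors, 7 of 14 tested were called higher in clones than in ES cells and none lower, with a median difference of 0.99 against -0.11 over all probes, of which 36.2% were called. Klb (β-Klotho), a co-receptor for endocrine FGFs, was higher by 5.09 (SE 0.83, adjusted p = 1.31e-05), the heparan sulphate proteoglycan Sdc4 by 3.61 (SE 0.35, adjusted p = 8.77e-09), Fgfr4 by 3.02 (SE 0.42, adjusted p = 1.8e-06) and Sdc2 by 2.81 (SE 0.45, adjusted p = 1.18e-05). None of them overlapped between clones and ES cells, and the share of all probes that did not was not computed. In source cells 5 of 14 were called higher than in clones (Fgfrl1, Sdc2, Gpc1, Gpc4 and Flrt2) and 4 lower. The median difference was 0.87 against -0.14 over all probes, of which 39.1% were called. Among the lower ones were Klb, by -6.80 (SE 0.67, adjusted p = 1.66e-09), and Fgfr4, by -6.08 (SE 0.48, adjusted p = 2.03e-11). Gpc3, a glypican, was the 1 gene of the list called higher in 3F-TTF-iPS clones, by 1.70 (SE 0.51, adjusted p = 0.0324).

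Of the kinases and adaptors from Frs2 to ERK, all 22 were tested and 2 were called between clones and ES cells, the adaptor Gab1 (-1.11, SE 0.35, adjusted p = 0.00934) and the kinase Braf (-1.08, SE 0.31, adjusted p = 0.00454), both lower in clones, with a median of -0.10 against -0.11 and 36.2% called over all probes. No relay gene was called between 3F- and 4F-clones of any source. Gab1 and the scaffold Ksr1 were called higher in PαS- than in OP-iPS clones, by 1.03 (SE 0.21, adjusted p = 0.0107, no overlap) and 1.22 (SE 0.34, adjusted p = 0.0408). Of all probes 1.60% were called there, and the 443 calls became 15 without the 3 clones that had Sox2 and Nanog below background, a limit that holds for each list gene called between PαS- and OP-iPS clones, whose own value without them was not computed. In source cells 6 of 22 relay genes were called, against 39.1% of all probes, 5 of them lower and Mapk3 (ERK1) higher (1.02, SE 0.20, adjusted p = 0.000101), with Rps6ka1, a kinase that ERK activates, lower by -3.96 (SE 0.54, adjusted p = 4.59e-07).

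Other feedback inhibitors were called in either direction. Of 16 tested, 4 were called higher in clones than in ES cells and 5 lower, with a median of -0.50 against -0.11 and 36.2% called over all probes. The ERK phosphatase genes Dusp9 (1.74, SE 0.54, adjusted p = 0.00901) and Dusp7 (1.62, SE 0.33, adjusted p = 0.000165) were higher, and the nuclear phosphatase gene Dusp2 was lower (-2.32, SE 0.67, adjusted p = 0.00522). In 3F-TTF-iPS clones Dusp2 was higher by 1.87 (SE 0.58, adjusted p = 0.04), opposite to Dusp6 in the same clones. In source cells 4 of 17 tested were called higher than in clones (Spred1, Dusp1, Dusp7 and Rasa1) and 4 lower, where 39.1% of all probes were called. Of the lower ones, Dusp9 differed by -8.65 (SE 0.53, adjusted p = 7.62e-14), without overlap.

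Of 13 ERK-induced transcription factors tested, 6 were called higher in clones than in ES cells and 2 lower, with a median of 0.48 against -0.11 and 36.2% called over all probes. Fosl1 was higher by 3.44 (SE 0.51, adjusted p = 3.96e-06) and Fos by 2.32 (SE 0.64, adjusted p = 0.00339). Egr1, an immediate early gene of ERK signalling, was higher in 3F-clones by 2.43 (SE 0.30, adjusted p = 6.44e-05) in OP-iPS and 1.89 (SE 0.30, adjusted p = 0.000533) in TTF-iPS clones, without overlap in either and with no slide shared between 3F- and 4F-clones of a source, whereas Etv1 was lower in 3F-clones over all sources by -1.01 (SE 0.28, adjusted p = 0.0119, where 5.34% of probes were called). PαS-iPS clones had less Egr1 than OP-iPS clones, by -1.39 (SE 0.21, adjusted p = 0.00158), and less than TTF-iPS clones, by -1.38 (SE 0.21, adjusted p = 0.00258), where 1.60% and 0.500% of probes were called.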

How the data were processed

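Total RNA of 30 iPS clones, 2 ES lines and 3 primary cells was measured on 35 Agilent mouse arrays (1 colour, Cy3). The deposited scanner intensity values were background-subtracted by Agilent Feature Extraction, per the file headers, with no scaling between arrays. A deposited table of log2 values, made in GeneSpring and centred on each probe's median, served as an alternative; its scaling between arrays is not given in the sources used here. Control spots and outlier flags were left out, replicate spots were averaged, and log2 intensities were taken relative to the 75th percentile of each array. Groups came from the sample labels. Probes detected over background by all arrays of 1 or more groups (27622, or 28300 with source cells) were fitted in limma 3.58.1 (R 4.3.3), in 1 fit with 7 groups, or 8 with the source cells as a group. Calls needed an adjusted p under 0.05 (Benjamini-Hochberg over all probes) and at least 2-fold. Correlations across clones had 100000 permutations. The clones of a group are taken as replicates, and p-values measure the spread between them; the number of arrays limits the precision. Alternatives were normexp background correction (offset 50), quantile normalization, the deposited table, another probe, no filter, no fold minimum, the slide or clone number as a block, and clones, ES lines or sources left out. The fit was tested on simulated data. Figures were drawn with Python 3.11.15 and matplotlib 3.10.9. Named genes are the members, the called list genes with the largest changes and the 3 genes most like each member (1 of those for Fgfr2 is not reported here), with marker genes that a statement turns on; Mapk3 was named after its value was seen. The members, lists and tests were chosen with earlier results of these data known. Coordinates of probes are those of the array design (mm7).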

Additional observations from a re-analysis of the deposited data

Results flagged for a closer look

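Of 48 sets of 5 clones (8 genes in 6 groups), 6 held a clone whose gap to its nearest neighbour, as a share of the group's whole range, was above Dixon's critical value, 0.71, where chance gives about 1 in 20. In 4F-OP-iPS #2 the share was 0.977 for Fgfr1, at -1.93 against 0.18 to 0.23 in the other clones of its group, 0.852 for Dusp6, at 2.74 against 4.22 to 4.47, and 0.813 for Etv5, at -3.82 against -0.63 to 0.10. For Spry4 it was 0.765 in the same clone, at -6.19 and not above background, against -4.02 to -3.35. Spry4 in 3F-TTF-iPS #5 was at -6.82, not above background, against -5.27 to -4.74 (0.745). Spry2 in 4F-OP-iPS #4 was at 2.00, above 1.33 to 1.49 in the other clones of its group (0.761).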

How the results depend on the processing

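The number of members called between clones and ES cells, 1, was 0 with normexp background correction and 2 with no fold minimum (Spry2 and Spry4). With the next brightest probe it was 2, Etv5 and Spry4, although Spry4 had no second tested probe and kept its own. With RF8 left out the differences were -2.69 for Spry4, -1.85 for Etv4 and -0.83 for Spry2. With EB-3 left out they were -2.20, -0.03 and -1.05. Between source cells and clones the 4 became 2 without OP cells and 7 without TTF cells, and stayed at 4 when any clone was left out. For 3F minus 4F over all sources the 0 became 1 after quantile normalization (Spry4) and 2 with no fold minimum (Fgfr2 and Dusp6), and 0 to 1 without a clone. In OP-iPS clones it was 0 to 1 without a clone, in PαS-iPS clones it stayed at 0, and in TTF-iPS clones the 1, which leaving out a clone did not change, became 0 with the slide as a fixed or as a random block. Between PαS- and OP-iPS clones the 1 became 0 with normexp (Fgfr2 0.96, adjusted p = 0.0202, under 2-fold), with the slide as a fixed block, and without the 3 clones with Sox2 and Nanog below background. It was also 0 without those and 4F-OP-iPS #2 (0.84, adjusted p = 0.163), a choice made after seeing the data. It stayed at 1 when any clone was left out. Between OP- and TTF-iPS clones it stayed at 0. Between PαS- and TTF-iPS clones the 0 became 1 with the next brightest probe, and was 0 to 1 without a clone. No member passed limma's test for a difference between sources in the effect of leaving out c-Myc, which 191 (PαS against OP), 170 (PαS against TTF) and 0 (OP against TTF) of 27622 probes did. At an unadjusted p under 0.05 were Fgfr2 for PαS against OP and Dusp6 against TTF for both other sources, beside 5221, 5345 and 1028 probes. Fgfr2 alone passed the adjusted threshold, between PαS- and OP-iPS clones, without 4F-PαS-iPS #2 (-1.91, adjusted p = 0.0461), so that the count was 0 to 1 without a clone. None of the called differences changed direction under any alternative run. Spry4 in source cells fell below the threshold with normexp (-0.86, under 2-fold) and quantile normalization (-1.21, adjusted p = 0.104). The cause of these changes was not tested. Over all probes, calls for 3F minus 4F in TTF-iPS clones ran from 5 (slide as a fixed block) to 2790 (no fold minimum) against 1595, those for PαS- minus OP-iPS clones from 15 (without the 3 clones) to 1287 (without 4F-OP-iPS #2) against 443, and those for 3F minus 4F in PαS-iPS clones from 0 to 533 against 5. Those for OP- minus TTF-iPS clones ran from 0 to 290 against 6, for PαS- minus TTF-iPS clones from 6 to 359 against 138, for 3F minus 4F in OP-iPS clones from 62 to 2274 against 1246, over all sources from 395 to 5855 against 1474, for clones minus ES cells from 5157 to 14464 against 10001, and for source cells minus clones from 7310 to 16775 against 11072. The numbers did not pair the clones, as 16 of 75 same-numbered pairs from different groups correlated above 0.1 (median -0.000876, range -0.423 to 0.425). With the clone number as a block the counts of members were 1, 4, 0, 0, 0, 1, 1, 0 and 0 in the order of the 9 comparisons (clones minus ES, source cells minus clones, 3F minus 4F over all sources and in PαS, OP and TTF, PαS minus OP, PαS minus TTF, OP minus TTF), as without it. The relations of Fgfr1 with Spry1, Etv4 with Etv5, and Dusp6 with Etv4 and with Etv5 passed the adjusted threshold under all 8 alternatives run, and the other 8 of the 12 lost it under at least 1. The slide as a fixed block could not be fitted for the other comparisons, and the relations of Fgf4 with Pou5f1, Sox2 and Nanog were not run. Spry4 is limited by its dim signal, above background on 26 of 35 arrays.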
